A study of Mus musculus and Canis lupus familiaris and Equus caballus with 9 samples.

Results

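The block of chromosome 4 between 145 and 148 Mb (mouse build mm10) holds 6 zinc-finger genes that are described here, Zfp978, Zfp993, Zfp980, Zfp985, Zfp992 and Rex2. They were chosen by the number of NRSF peaks listed at them in these same data, so their peak numbers are given as a description and no test is made on them. The block holds 17 zinc-finger genes under a Zfp symbol or Rex2, and the annotation used lists 21900 protein-coding genes for the mouse. The peaks came from chromatin immunoprecipitation and sequencing (ChIP-seq) of RAW264.7 cells, a mouse macrophage line derived from the BALB/c strain and used here at passages 13 to 15. There were 2 samples immunoprecipitated with a monoclonal antibody against NRSF and 1 input DNA sample, which no antibody had enriched. Cells were fixed with 1% formaldehyde, and DNA of 200 to 300 bp went into the libraries. The 2 immunoprecipitated samples share 1 list of 2357 peaks, each 400 bp wide, so that no value per replicate exists. The list gives positions only, with no peak height, p-value or read count, so the depth is unknown and the cell type cannot be checked against marker genes.

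NRSF, or REST, is a transcription repressor of the zinc-finger type. It recognises a long DNA element, RE1, and is best known for holding neuronal genes silent in other tissues. The genes of this block encode zinc-finger proteins themselves, many of them of the KRAB class, whose KRAB domain recruits the corepressor TRIM28 and silencing histone marks to DNA. Such genes lie in tandem clusters that grow by duplication, and mouse clusters of this kind are known for repressing endogenous retroviruses. What each of the 6 proteins binds is not described here.

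Sequences at the annotated starts show how alike some of the copies are. RefSeq promoter sequences (GRCm38.p6, another name for the mm10 assembly) were found for 4 of the 6 genes, Zfp993, Zfp980, Zfp985 and Rex2, all on the plus strand. The 250 bases before the start are shown for the 3 that resemble each other, with capitals where all 3 carry the same base in their alignment.
Zfp980 (chr4:145670447-145670696, plus strand): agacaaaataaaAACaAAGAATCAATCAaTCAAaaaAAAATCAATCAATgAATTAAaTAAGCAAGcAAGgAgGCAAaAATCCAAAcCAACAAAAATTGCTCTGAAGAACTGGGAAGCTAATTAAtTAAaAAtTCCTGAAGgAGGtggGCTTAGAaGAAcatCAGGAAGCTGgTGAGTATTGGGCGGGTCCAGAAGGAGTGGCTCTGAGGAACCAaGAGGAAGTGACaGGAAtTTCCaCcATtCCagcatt
Zfp985 (chr4:147553027-147553276, plus strand): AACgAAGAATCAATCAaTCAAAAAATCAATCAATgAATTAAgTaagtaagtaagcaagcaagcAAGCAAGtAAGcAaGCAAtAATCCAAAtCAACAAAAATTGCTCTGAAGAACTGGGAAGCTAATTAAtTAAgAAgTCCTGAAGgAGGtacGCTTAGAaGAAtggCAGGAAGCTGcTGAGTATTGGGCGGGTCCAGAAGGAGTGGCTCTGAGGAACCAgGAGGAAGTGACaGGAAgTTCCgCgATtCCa
Rex2 (chr4:147021600-147021849, plus strand): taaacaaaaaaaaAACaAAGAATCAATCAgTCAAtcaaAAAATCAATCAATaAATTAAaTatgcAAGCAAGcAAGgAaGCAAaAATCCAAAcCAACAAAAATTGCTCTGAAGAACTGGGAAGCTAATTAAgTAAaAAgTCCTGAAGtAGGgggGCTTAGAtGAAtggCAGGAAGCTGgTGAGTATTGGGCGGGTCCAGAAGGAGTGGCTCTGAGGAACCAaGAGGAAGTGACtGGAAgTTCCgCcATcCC
All 3 shared 202 of 250 bases (80.8%). Over the whole window, which runs on 50 bases past the start, pairwise identity in a global alignment was 88.6% for Zfp980 and Rex2, 81.9% for Zfp980 and Zfp985, and 81.7% for Zfp985 and Rex2. Zfp993 did not belong to this group, with 45.3 to 48.3% identity to the other 3. This range is like the 41.8 to 51.6% between zinc-finger genes of the block and its other genes. Predicted genes with a symbol beginning with Gm were left out of that comparison. The closest copy of the Rex2 window was that of Zfp600, another zinc-finger gene of the block, with 299 of 301 aligned positions identical (99.3%). No peak overlapped any of the 4 windows, and the starts of Zfp978 and Zfp992 were not examined. The letters CAGCACC and GGACAGC, which stand for parts of the left and right side of RE1, occurred on neither strand in the 4 windows, and 7.09% and 6.59% of all 27025 promoter windows held them.

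Every one of the 6 genes had at least 5 peak midpoints at it, meaning within the annotated gene or no more than 10 kb from one of its ends, compared with 7.49% of all protein-coding genes that had at least 1. Zfp978 and Zfp993 had 11 each, Zfp980 had 6, and Zfp985, Zfp992 and Rex2 had 5 each. Only 11 of the 21900 genes (0.0502%) reached 5 peaks, and the 6 genes here are the ones of them that lie in the block. Just below them in the block were Zfp988 with 4 and Zfp979 with 3. The 43 pairs of a gene and a peak came from 41 distinct peaks, which are 63.1% of the 65 peaks of the block and 1.74% of the whole list. The spans of the 6 genes together cover 901.2 kb, or 30.0% of the block.

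**Figure D1:**
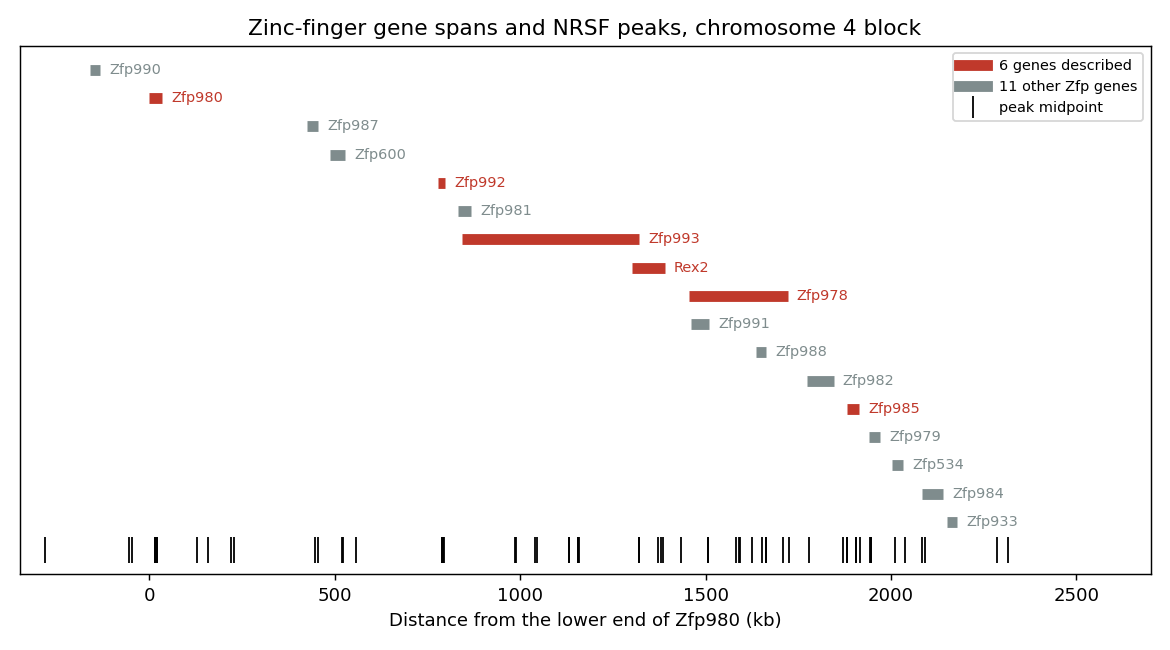
Spans of the 17 zinc-finger genes of the block (bars; red, the 6 genes described; grey, the other 11) and the 65 peak midpoints (black ticks), by distance in kb from the lower end of Zfp980. Peaks lie in groups along the block, and Zfp993 and Zfp978 span several of them.

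By density the order was nearly turned round. Per 100 kb of span, Zfp992 had 24.5 peaks inside and Zfp980 had 17.8, against 6.26 in Zfp985, 5.73 in Rex2, 3.74 in Zfp978 and 2.09 in Zfp993. The shortest gene, Zfp992, was therefore the densest, and the pair with most peaks the sparsest. The genes were chosen by peak number, and counts inside ran from 2 to 10 over spans of 20.4 to 479 kb. Gene length enters such a density directly, and its part in this order was not tested. Zfp985, at 31.9 kb, was shorter than Zfp980, at 33.7 kb, but less dense. Of the 43 gene and peak pairs, 38 lay inside the gene itself and 5 outside it, 3 of these at Zfp985. Across all protein-coding genes, 4.43% had a midpoint inside the span.

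**Figure D2:**
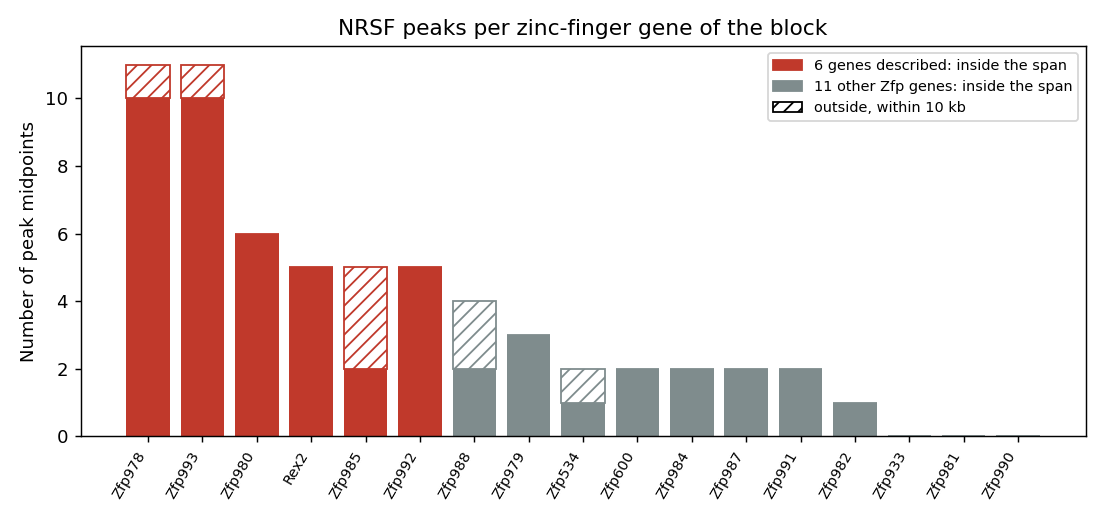
Number of peak midpoints for each zinc-finger gene of the block, inside the span (solid) or outside it within 10 kb (hatched). The 6 genes described (red) have 5 to 11, and the other 11 (grey) have 0 to 4; a peak shared by overlapping spans is counted at each.

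Zfp980 (Gm13242 in older annotation) spans 33.7 kb, from 145670697 to 145704437, and its 6 peaks all lay in the middle of the gene. The midpoints were at 145685285, 145686825, 145687655, 145688140, 145691205 and 145691860, or 43.2, 47.8, 50.3, 51.7, 60.8 and 62.7% of the way from the lower end, which is its annotated start. They form a tight cluster of 6575 bp from first to last, with 14588 bp of gene before it and 12577 bp after it. The gaps between neighbours were 1540, 830, 485, 3065 and 655 bp. No further peak lay within 46112 bp below the gene or 95518 bp above it.

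Zfp992 (Gm13251) had the same kind of cluster. It spans 20.4 kb, from 146449030 to 146469440, with midpoints at 146460235, 146460965, 146461540, 146462065 and 146465205, or 54.9, 58.5, 61.3, 63.9 and 79.2% of the span. The gaps were 730, 575, 525 and 3140 bp, so that, as in Zfp980, a run of 4 close peaks was followed by a gap of about 3 kb (3065 bp in Zfp980). When the 2 clusters were laid over each other, 4 of the 5 Zfp992 peaks met a Zfp980 peak within 200 bp. Shifts of 4333 and 4923 bp, measured from the lower gene ends, each gave 4 matches but paired different peaks, so no single pairing can be preferred. This was the highest number among the 14 pairs of described genes without shared peaks, compared after the positions had been seen. Of these pairs, 4 matched 3 or more peaks and the other 10 matched 2. Each pair was taken at its best shift in either orientation, and Zfp980 and Zfp993 matched 3 with 1 gene inverted. The 10 pairs of genes with 5 or more peaks outside the block matched at most 2. Those genes span 299 to 1090 kb, and the clusters of Zfp980 and Zfp992 measure 6575 and 4970 bp. Closely spaced peaks match more easily, so these numbers are not comparable. The nearest peaks beyond Zfp992 were 219975 bp below and 188385 bp above it, which was farther on both sides than for any of the other 5 genes. All 5 peaks also lay inside the long span of the vomeronasal receptor pseudogene Vmn2r-ps16. The strand of Zfp992 was not used here.

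Zfp985 (Gm13154) was the gene with most of its peaks outside the span. It runs from 147553277 to 147585201 (31.9 kb). A pair at 147551115 and 147551785 lay 2162 and 1492 bp before its annotated start. Another pair, at 147575400 and 147576765, was 69.3 and 73.6% of the way through the gene, and a single peak at 147586075 lay 874 bp past its end. The gaps were 670, 23615, 1365 and 9310 bp. A further peak at 147542675 missed the 10 kb reach, lying 10602 bp below the gene.

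Rex2 (Gm13138) spans 87.2 kb, from 146973610 to 147060799, but the transcription start of its promoter window is at 147021850, well inside that span. Its peaks at 146990915 and 146992095 lay 30935 and 29755 bp before that start, at 19.8 and 21.2% of the span. The other 3, at 147042710, 147051155 and 147056110, lay 20860, 29305 and 34260 bp after it, at 79.3, 88.9 and 94.6% of the span. The first pair is shared with Zfp993, whose span overlaps that of Rex2 by 17862 bp, and these 2 peaks are the only ones counted at both of 2 described genes. Without them Rex2 would be left with the 3 peaks of its last part.

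Zfp993 is annotated by a single predicted transcript with no curated one, over 479 kb from 146512849 to 146991471. The first part of the gene held no peak, since its first midpoint was 144976 bp after the start. Peaks stood in close pairs or triplets far apart from each other. The first pair was at 146657825 and 146658315 (30.3 and 30.4% of the span) and a looser pair at 146711505 and 146716450 (41.5 and 42.5%). Next came a pair at 146802635 and 146803195 (60.5 and 60.7%) and a triplet at 146827335, 146827925 and 146828645 (65.7, 65.8 and 66.0%). The pair shared with Rex2 fell on the upper end of the gene, with 1 peak 556 bp inside it and the other 624 bp outside. The 3 lowest of the 11 peaks also lay inside the pseudogene LOC115486238. Zfp981, a zinc-finger gene that overlaps the first part of Zfp993 by 26547 bp, had 0 peaks within its own reach.

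Zfp978 (Gm13145) runs over 267 kb from 147124882 to 147392027 and contains the whole spans of Zfp991 and Zfp988. Of its 11 peaks, 6 were shared with these neighbours. The pair at 147177555 and 147178465 (19.7 and 20.1% of the span) lay inside Zfp991. The peaks at 147297335, 147324365, 147333420 and 147334315 (64.6, 74.7, 78.1 and 78.4%) were all those counted at Zfp988, and 2 of them lay inside it. Peaks shared with no other protein-coding gene were at 147253075, 147262180 and 147262635 (48.0, 51.4 and 51.6%), at 147379845 (95.4%) and at 147394630, which was 2603 bp past the upper end. Within this gene 1 arrangement came up again: a single peak, a gap of 9105 or 9055 bp, and a pair 455 or 895 bp apart. The second of these began 71290 bp above the first. A like arrangement lay at the lower end of Zfp985, with 8440 bp from 147542675 to 147551115 and then a pair 670 bp apart. Whether such arrangements are copies of each other was not examined.

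**Figure D3:**
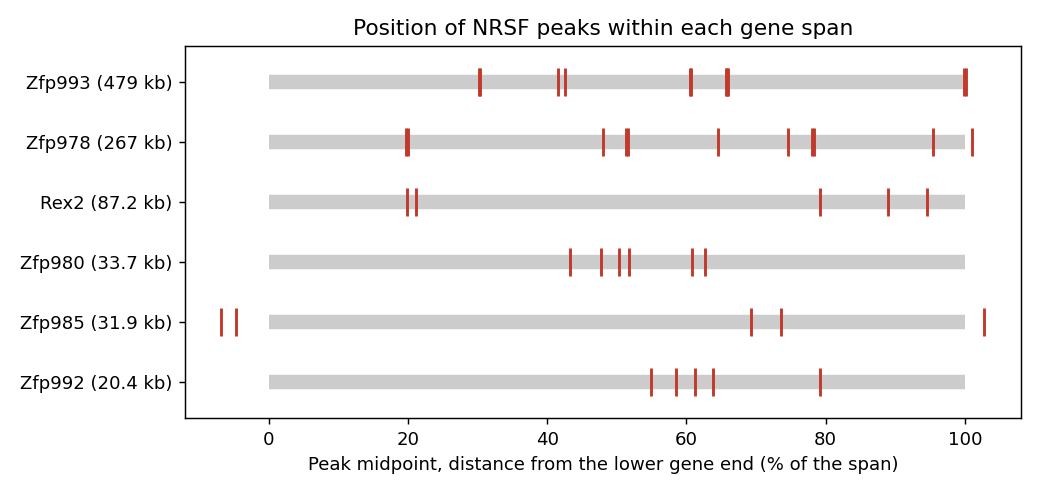
Peak midpoints (red ticks) along each of the 6 gene spans (grey bars), as a percentage of the span from its lower end, with the longest gene on top. Zfp980 and Zfp992 hold their peaks between 43.2 and 79.2% of the span, whereas Zfp985 has 3 outside it.

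Distances from the peaks to the gene ends were counted with no share over all genes beside them. Of the 43 gene and peak pairs, 3 had the midpoint within 1 kb of either end and 8 within 5 kb. Zfp993 and Zfp978, with 11 pairs each, span 479 and 267 kb, where most positions are far from an end. For Zfp980, Zfp985 and Rex2, the genes with a known strand and a span under 100 kb, 0 of 16 midpoints fell within 1 kb of the 5′ end of the span. Of the 16, 10 lay closer to its 3′ end than to its 5′ end. The margin could be small, as for a Zfp980 peak 16958 bp from the 5′ end and 16782 bp from the 3′ end. Rex2 had a midpoint 9644 bp and Zfp985 had midpoints 9801 and 8436 bp before the 3′ end, whereas in Zfp980 they lay 12577 to 19152 bp before it. Of the 7 other zinc-finger genes of the block with a known strand and a peak, Zfp987, Zfp988, Zfp534 and Zfp984 also had a midpoint between 8 and 10 kb before the 3′ end, at 9169, 9702, 8480 and 8911 bp, and Zfp600, Zfp979 and Zfp982 had none there. Zfp985, Zfp987 and Zfp988 had 1, 1 and 2 midpoints within 1 kb of the 3′ end. Zfp993, left out of these counts for its length, had midpoints 556 bp before and 624 bp past its 3′ end. Zfp981 and Zfp933, whose strand is also known, had 0 peaks. The band of 8 to 10 kb and this way of counting were chosen after the positions had been seen. No share over other genes was counted beside them.

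**Figure D4:**
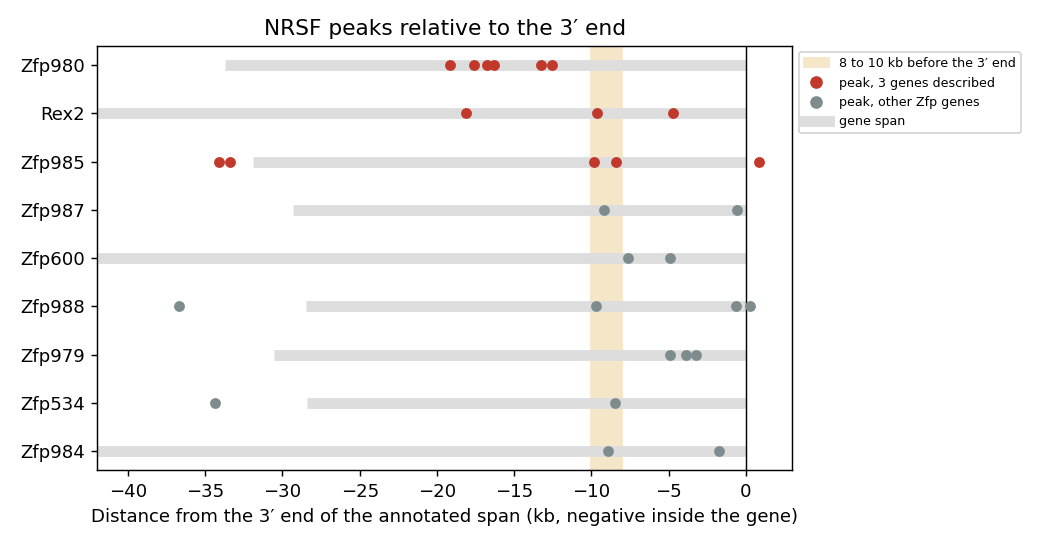
Peak midpoints by distance in kb from the 3′ end of the annotated span (negative values lie inside the gene) for Zfp980, Rex2 and Zfp985 (red) and 6 other zinc-finger genes of the block (grey), cut at 40 kb; grey bars are gene spans. In 6 of the 9 genes drawn a peak falls in the shaded band from 8 to 10 kb, which was chosen after the positions had been seen. No share over other genes was counted for this band. Zfp982, whose only peak lies 65449 bp before its 3′ end, is beyond the axis and not drawn. Zfp981 and Zfp933, whose strand is known, had 0 peaks and are not drawn either.

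The peaks of the block did not follow 1 regular interval. The 64 gaps between consecutive midpoints ran from 455 to 231180 bp, with a median of 9207.5 bp, compared with 454415 bp in the rest of the mouse list. Distances were instead counted by class. Peaks were 21.7 per Mb in the block and 0.866 per Mb over the whole list, and denser peaks alone give more short gaps. The part of density in the shares below was not tested. The 2 kb class that held most gaps was the shortest, from 0 to 2000 bp, with 19 of 64 (29.7%), against 40 of 2272 (1.76%) in the rest of the list. Of these 19 short gaps, 17 lay between peaks of the 6 genes. They measured 455 to 1540 bp over the block, with a median of 670 bp. Of the 41 peaks at the 6 genes, 29 (70.7%) belonged to groups in which neighbours were at most 2 kb apart. Among all 65 peaks of the block 32 (49.2%) had a neighbour within 2 kb, against 77 of 2292 (3.36%) outside it. The 6 genes were chosen by peak number, and a short gene with many peaks has them close together. Their share is therefore partly set by that choice. No gap lay between 5 and 7 kb, and 9 (14.1%) were between 7 and 10 kb, against 0.88% in the rest of the list. On chromosome 13 from 65 to 66 Mb, a stretch with 11 peaks, 2 of 10 gaps were of this length. The 9 gaps of the block measured 7180 to 9310 bp. Of them, 4 lay at the described genes, 2 in Zfp978 and 1 each in Rex2 and Zfp985, and the others included 1 at Zfp987 (8600 bp) and 1 at Zfp984 (7180 bp). Neighbouring gaps share a peak and gene copies share sequence, so these counts carry no test.

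**Figure D5:**
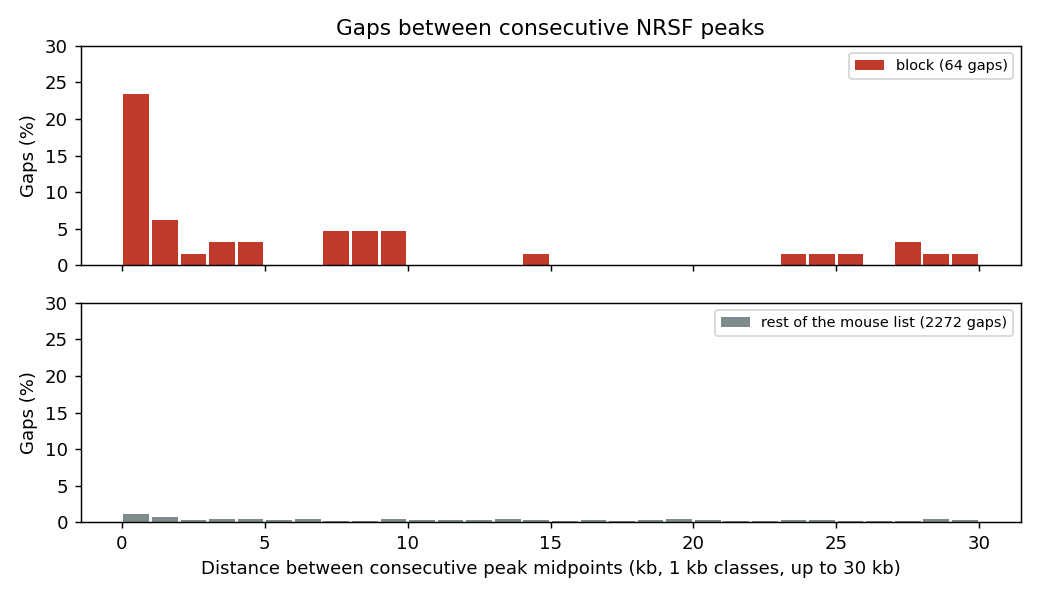
Share of the gaps between consecutive peak midpoints in classes of 1 kb up to 30 kb, for the block (red, 64 gaps) and the rest of the mouse list (grey, 2272 gaps). The block has its gaps below 5 kb, between 7 and 10 kb and above 23 kb, with 1 exception at 14785 bp.

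Peaks were dense in the block on average, although 6 stretches of 162 to 231 kb held none. The block held 65 peaks, or 21.7 per Mb, against 1.01 per Mb on the rest of chromosome 4 and 0.833 per Mb on the other chromosomes, up to the last annotated gene. The number increased from the lowest to the highest Mb of the block, with 13, 21 and 31 peaks. The Mb below the block had 0 and the Mb above it had 5. Of the 17 zinc-finger genes of the block 14 had a peak, the exceptions being Zfp990, Zfp981 and Zfp933. The 14 include the 6 genes chosen for their peaks, and every peak counted at Zfp991 and Zfp988 is also counted at Zfp978. Among all protein-coding genes 7.49% had a peak, but a set that holds chosen genes cannot be compared with that share. Of the 11 other protein-coding genes of the block, 2 had a peak, the predicted gene Gm13212 and Nppb, which encodes a natriuretic peptide.

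Zinc-finger genes elsewhere, which were not chosen by peak number, did not stand out. Of the 381 Zfp genes outside the block, 25 had a peak (6.56%, exact binomial 95% interval 4.29 to 9.53%), a share near the 7.49% of all protein-coding genes. The most peaks at any of them was 2, reached by Zfp640, Zfp672, Zfp653 and Zfp638. The fifth by the naming rule, Zfp579, had 1. Genes outside the block with the most peaks were long genes, mostly of neuronal function: Dpp6, an auxiliary potassium channel subunit, had 8 peaks over 910.0 kb, Rbfox3, a neuronal splicing factor also known as NeuN, had 7 over 422 kb, and Camta1, a transcription activator, had 7 over 802 kb. Atp2b2, a plasma membrane calcium pump, and Asic2, an acid-sensing ion channel, had 5 each over 299 and 1090.0 kb. Zfp980, Zfp985 and Zfp992 reached 5 or 6 over 20.4 to 33.7 kb. A list of 21 genes covered the repression machinery that KRAB proteins use and related silencing factors. Of the 21, 2 had a peak, beside 7.49% of all protein-coding genes, so the list did not stand out. The 2 were Rest, which encodes NRSF itself, with 2, and Morc3, a chromatin ATPase, with 1. Trim28 and Setdb1, the corepressor and its histone methyltransferase partner, had 0, like the rest of the list.

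Copies this alike can share sequencing reads, and no source used here says how reads with several matching places were assigned. The number of copies of the block in RAW264.7 cells was not measured, and the gene table is that of the C57BL/6J strain. The part of either in the number of peaks was not tested, so each count here is uncertain as to which copy was bound. Rex2 and Zfp600, with nearly identical promoter windows, were listed with 5 and 2 peaks.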

How the data were processed

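NRSF ChIP-seq peaks of mouse RAW264.7 cells were used as the authors deposited them: chromosome, start and end, with no score. Per the submitters' processing notes, the read aligner Bowtie 0.12.8, the peak caller MACS 1.4.2 and the build mm10 were used in the series, with no role stated for each. No source used here gives the peak threshold, how both replicates were merged, or whether the first base is numbered 0 or 1.

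A gene had a peak when a midpoint lay inside its RefSeq span (GRCm38.p6) or within 10 kb of either end. The table has no strand or exons; strand came from RefSeq promoter windows. Whether a peak is exonic or intronic was not examined. Counting was tested on simulated data for the 21900 mouse protein-coding genes, where all 200 planted genes were recovered. Promoters were aligned with Biopython 1.88 and MAFFT 7.526. Peak sequences and proteins were not used here, so the planned counts of zinc fingers were not made. Python 3.11.15, numpy 2.4.6, pandas 2.3.3 and scipy 1.17.1 were used.

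The members and lists were chosen with earlier results of these data known. Named were the 6 genes, genes that overlap them or share their peaks (pseudogenes and non-coding genes only in part), up to 5 Zfp genes and up to 5 protein-coding genes outside the block with the most peaks (ties by shorter span), and members of the silencing list with a peak. Zinc-finger genes of the block and the genes at 0 were named after their values were seen.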

Additional observations from a re-analysis of the deposited data

How the results depend on the processing

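Each of the 6 genes had a peak under every reach tried (0, 1, 5 and 20 kb, or any base of a peak within 10 kb). The genes were chosen by their peak number in this same list, so this is no independent check. Of 73 alternative values, 61 stayed within 1.5 times the reported count or, for shares, within its 95% interval, and 12 did not. Counts were compared whatever their total, so this tally overstates how stable they are. Over all pairs of peaks the fullest class held 26 of 2080 (1.25%), against 19 of 64 (29.7%), and still passed. Block limits moved outward by 1 Mb held 70 peaks against 65, in a larger window, and passed too. With midpoints inside spans only, peaks shared by the 6 genes fell to 1, and Zfp985 had 2 peaks (3 with a reach of 1 kb). Without Zfp993 and Zfp978, whose spans exceed 200 kb, 21 distinct peaks were left. With reaches of 0 and 1 kb, Zfp genes outside the block had a peak in 2.62% and 3.67%; with 0, 1, 5 and 20 kb all protein-coding genes did in 4.43%, 5.0%, 6.2% and 9.89%. With peaks within 2 kb or within 1 kb joined, choices made after the data were seen, the fullest gap class held 7 gaps in either case, between 7100 and 9100 bp. A stricter peak threshold was not run, as the list has no score. No paired analysis was possible because 1 list stands for both replicates. Unknown depth limits what a missing peak can show.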

Other observations

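Long stretches of the block held no peak. Of the 64 gaps, 6 were longer than 150 kb, and they measured 162 to 231 kb. The gaps of 218 and 231 kb were largely without annotated genes, with unannotated runs of 160.0 and 180.0 kb. The gap of 193 kb covered the beginning of Zfp993 and all of Zfp981 and had annotated genes throughout. The gap of 194 kb took in Zfp933 and began at the peak at 147762885, in Zfp984. Above it lay the peaks at 147957345 and 147985395, the last of the block, 28050 bp apart.

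Outside the block, 2 other bins of 1 Mb held 10 or more mouse peaks, with 11 each. The bin on chromosome 13 from 65 to 66 Mb had 1 Zfp gene among its 12 protein-coding genes, and the bin on chromosome 7 from 8 to 9 Mb had only genes of the vomeronasal receptor family (6 of 6). The median gap was 4042.5 to 19200 bp in the 3 bins of the block, against 37550 bp in the chromosome 13 bin and 54242.5 bp in the chromosome 7 bin. Gaps under 2 kb numbered 4 of 12, 8 of 20 and 7 of 30 in the bins of the block, from the lowest up, against 1 of 10 in the chromosome 13 bin and 2 of 10 in the chromosome 7 bin. Gaps of 7 to 10 kb made up 14.1% in the block, against 2 of 10 in the chromosome 13 bin and 0 of 10 in the chromosome 7 bin, so the block was not above the chromosome 13 bin in this class.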
